A study of Mus musculus with 2 samples.

Results

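The Na,K-ATPase, or sodium pump, moves sodium out of the muscle fibre and potassium into it, and so restores the ion gradients that each action potential runs down. It is built from a catalytic alpha subunit, which splits ATP and carries the ions, and a glycosylated beta subunit, which the alpha subunit needs to fold and to reach the plasma membrane. Small single-span proteins of the FXYD family bind the complex and adjust its affinity and turnover. The genes described here are the 4 beta subunit genes *Atp1b1*, *Atp1b2*, *Atp1b3* and *Atp1b4* and the 3 FXYD genes *Fxyd1*, *Fxyd5* and *Fxyd6*, 7 genes of 27570 genes or array names with a usable probe. They were found as every probe that is not a control and carries the name or an alias of 1 of these genes, which gave 11 probes. The genes were chosen from the values of the same *Gde5* skKO over WT comparison that is reported here, so their ratios and calls are a description, and a p-value computed from these arrays for any of them is no independent evidence.

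GDE5, the product of *Gpcpd1*, is the cytosolic enzyme that splits glycerophosphocholine into choline and glycerol 3-phosphate. RNA came from the gastrocnemius (GAS) muscle of male C57BL/6 mice aged 15 weeks on a normal diet, either wild-type (WT) or *Gde5* skKO, in which a floxed *Gde5* gene is deleted by HSA-Cre. That Cre is driven by the human alpha-skeletal actin promoter, so the deletion is meant for muscle fibres and the other cells of the tissue keep the gene. The study's methods describe *Gde5* flox/flox littermates as controls of the contractile force and fatigue tests. They name such littermates for the glucose tolerance test and fasting challenge too, while the array labels say only wild-type. RNA of both genotypes was set against each other on 2 two-colour Agilent arrays with the dyes swapped, *Gde5* skKO in Cy5 on array 1 and in Cy3 on array 2. The series names 5 mice of each genotype, and its labels leave unsaid how their RNA was combined, whether the swapped array repeats the RNA of the other, and whether the mice had been fasted or injected with glucose.

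Every ratio below is a log2 ratio of *Gde5* skKO over WT, so that 1 is a doubling and a negative value is a lower level in *Gde5* skKO, and every signal is the background-subtracted and dye-corrected brightness of a spot. Each gene was read from its brightest probe, and a gene was called when the p-value that Agilent Feature Extraction gives within each array was under 0.05 on both arrays and both ratios ran the same way. Such a p-value covers the noise of the spots within an array and leaves out how mice differ from each other. With 2 arrays and no known replicate animals, no test across mice was possible, and the small number of arrays limits how precise any ratio is. Of the 43379 spots per array that are not controls, less those left out, between 44.6% and 53.2% were well above background in a given channel. The filter on dim signal asked that at least 1 of both channels be well above background on each array, and it left 13571 genes whose median ratio was 0.01 and 0.02 on the arrays. The deletion was seen by 3 of 4 probes for *Gpcpd1*, listed as Prei4, at -2.59, -2.69 and -3.07 on array 1 and -3.27, -3.24 and -3.29 on array 2. The brightest *Gpcpd1* probe, at chr2:132256048-132256107 of mm8, read -0.05 and -0.47, with Feature Extraction p-values of 0.80 and 0.026. The deleted gene was therefore not called, so a rule that reads only the brightest probe can miss a change that other probes show. All 8 genes listed as skeletal muscle markers (*Ckm*, *Acta1*, *Mb*, *Des*, *Ttn*, *Tcap*, *Neb* and *Myot*) passed this filter. Every listed gene of endothelium, fibroblasts and smooth muscle passed it too, so passing it does not by itself identify the tissue.

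All 7 pump genes passed the filter on dim signal. *Atp1b4* was called higher, at a mean ratio of 1.74 or 3.34-fold, no member was called lower, and 6 were not called. That mean was 0.89 with the normexp background model and 0.94 with no background correction, so the printed fold depends on how the background is handled. Over all genes tested, 1.58% were called higher and 1.74% lower, and a further 1.57% had such a p-value on both arrays with ratios that followed the dye instead of the genotype. The mean ratio of the brightest probe ran from -0.22 for *Atp1b3* to 1.74 for *Atp1b4*, with a median of 0.13 over the 7 genes beside 0.01 over all genes. There were 5 genes with positive ratios on both arrays, 1 with negative ratios on both and 1 whose sign differed between the arrays, while 54.5% of all genes had 1 sign on both arrays. In a whole muscle, more cells of a type and more RNA per cell cannot be told apart in any of these values.

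**Figure D1:**
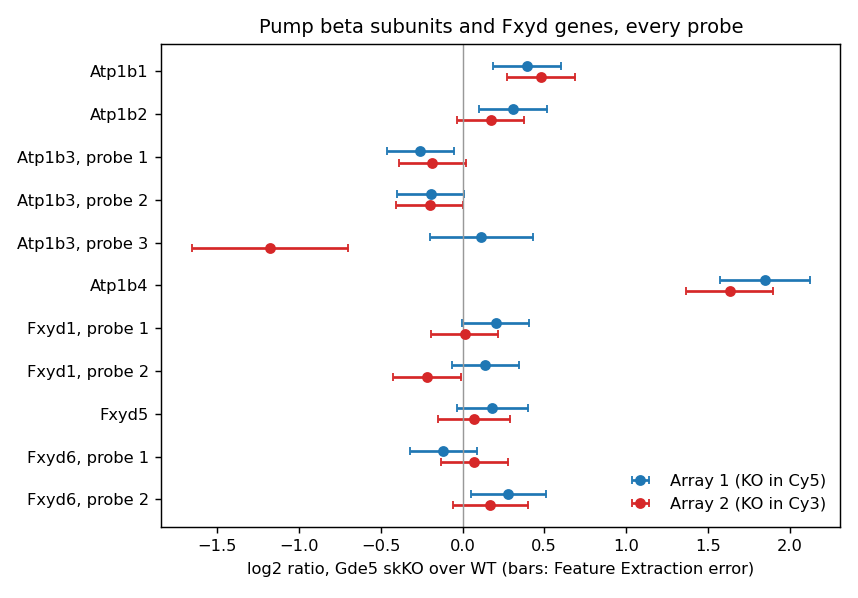
Log2 ratio of *Gde5* skKO over WT for each of the 11 probes of the 7 genes (rows), on array 1 (blue) and array 2 (red), with bars for the error that Feature Extraction gives the ratio and probes of a gene numbered from brightest to dimmest. *Atp1b4* stands alone at 1.85 and 1.63, and the dimmest *Atp1b3* probe is the only other one with a ratio beyond 0.5 in size on either array.

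The sequences that precede *Atp1b4*, which carried the largest ratio of the family, and *Atp1b1*, which had the next highest, are shown as background to their values. Each is the RefSeq window of 300 bases on GRCm38.p6, read 5′ to 3′ on the strand of the gene, from 250 bases before the transcript start to 50 after it. The *Atp1b4* window lies at chrX:38315872-38316171 on the plus strand and that of *Atp1b1* at chr1:164458306-164458605 on the minus strand. Capitals mark E-boxes (CANNTG), the core to which MyoD and other basic helix-loop-helix factors bind, and CCAAT boxes, written ATTGG where they lie on the other strand.
Atp1b4: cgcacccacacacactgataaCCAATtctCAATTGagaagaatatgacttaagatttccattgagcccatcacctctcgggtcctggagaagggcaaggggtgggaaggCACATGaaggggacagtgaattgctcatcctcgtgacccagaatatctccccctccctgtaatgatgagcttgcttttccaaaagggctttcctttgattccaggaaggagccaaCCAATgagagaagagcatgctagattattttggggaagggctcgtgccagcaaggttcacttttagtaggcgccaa
Atp1b1: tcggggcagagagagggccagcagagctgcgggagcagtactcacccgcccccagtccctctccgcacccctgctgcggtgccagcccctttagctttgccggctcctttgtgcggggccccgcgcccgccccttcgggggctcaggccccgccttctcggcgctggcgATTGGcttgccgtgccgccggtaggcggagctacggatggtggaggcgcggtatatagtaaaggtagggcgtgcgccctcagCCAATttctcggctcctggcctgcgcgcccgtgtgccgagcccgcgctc

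The *Atp1b4* window holds 2 E-boxes, CAATTG at base 30 and CACATG at base 110 of the window, and 2 CCAAT boxes. That of *Atp1b1* holds no E-box, 2 CCAAT boxes and 2 GC boxes (GGGCGG, read on both strands), the motif of Sp1-like factors, which are not capitalised. Of all 32851 windows of this length, 72.3% hold an E-box, 37.4% a CCAAT box and 35.7% a GC box, so that an E-box is the rule and not the exception. *Atp1b4* has a GC content of 49% and *Atp1b1* of 71%, beside a median of 52.7% over all windows. Windows were held for 6 of the 7 genes. The 2 *Atp1b3* windows contain 1 E-box each, and in the window with 6 GC boxes the last base of the E-box is also the first of a GC box. No other matches in the windows overlapped. The window of *Fxyd5* contains 1 E-box, that of *Fxyd6* contains 2 with 1 CCAAT box, and that of *Fxyd1* has none of these but 1 match to the TATA box (TATAAA), which 13.6% of windows hold. That match lies on the other strand, as TTTATA at base 252 of the window, and so after the transcript start. The TEF-1 motif CATTCC and the MEF2 and CArG motifs, held by 14.7%, 3.2% and 1.6% of all windows, were searched on both strands as well and matched in none of these windows. A match or its absence is a description of letters in the window and says nothing of a factor.

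*Atp1b4* encodes the protein called BetaM, which in placental mammals is no longer a partner of the pump but sits in the inner nuclear membrane of muscle cells, where it binds the transcriptional co-regulator SKIP. It is known as a gene of skeletal and heart muscle that is most active around birth. Its probe lies at chrX:34580997-34581056 of mm8 on the plus strand. On array 1 the signal was 123.8 in WT and 446.3 in *Gde5* skKO, and on array 2 it was 132.7 in WT and 411.5 in *Gde5* skKO. Each genotype repeated closely between its Cy3 and Cy5 readings, though both arrays may hold the same RNA. The ratios were 1.85 and 1.63, with Feature Extraction errors of 0.27 and 0.26, so they differed by less than 1 error between arrays and stood several errors from 0. Among the 13571 genes, *Atp1b4* ranked 2 by the mean of the deposited ratios, after *Acbd7*, which was too dim in at least 1 channel to be read in all of them.

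The size of the *Atp1b4* ratio turned on how the background was handled, and the WT spots were dim. Before any correction the WT spot read 79.9 over a local background of 38 on array 1 and 84.6 over 41 on array 2, and the *Gde5* skKO spot read 219.7 over 43 and 138.8 over 34.5. With limma's normexp background model, which adds an offset of 50 and so draws dim ratios toward 0, the ratios were 0.93 and 0.85, and with no background correction they were 1.01 and 0.87. Each of these was higher in *Gde5* skKO, and the p-value behind the call is that of the deposited ratio throughout.

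**Figure D2:**
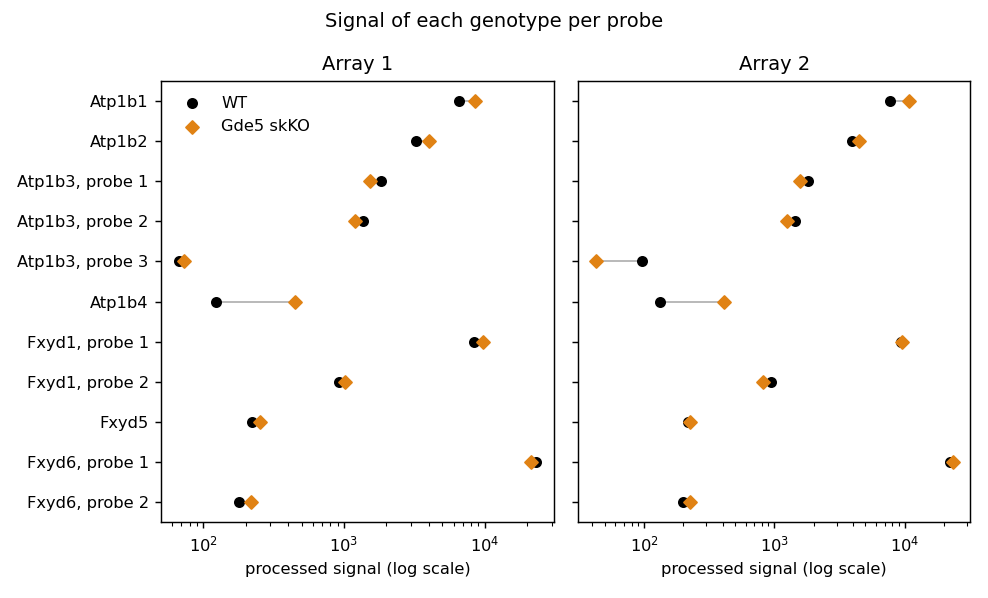
Processed signal of WT (black circles) and *Gde5* skKO (orange diamonds) for each probe on array 1 and array 2, on a log axis, with a line joining both genotypes of a probe. The genotypes lie apart at *Atp1b4*, at 123.8 and 446.3 on array 1, and nearly coincide at most other probes, and positions of different probes are not comparable as levels.

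*Atp1b1* encodes the beta subunit found in most tissues and *Atp1b2* the one known from brain and from fast muscle fibres. The single probe of *Atp1b1* (chr1:166274807-166274866 of mm8, minus strand) read 6531 in WT and 8587 in *Gde5* skKO on array 1, and 7694 and 10715 on array 2. The ratios of 0.39 and 0.48 had errors of 0.21 each. The mean of 0.44, or 1.35-fold, ranked 627 of 13571 genes. It was not called, since the Feature Extraction p-value was 0.0568 on array 1 and 0.0220 on array 2. The normexp mean was 0.39, close to the value as deposited.

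The probe of *Atp1b2* (chr11:69416148-69416207, minus strand) read 3270 in WT and 4050 in *Gde5* skKO on array 1, and 3955 and 4461 on array 2. The *Gde5* skKO channel was again the brighter on both arrays, by ratios of 0.31 and 0.17 with errors of 0.21 and 0.20. The *Gde5* skKO signal on array 1 lay only slightly above the WT signal on array 2, so the difference is visible within an array more than across them. The mean ratio was 0.24, or 1.18-fold, without a call.

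*Atp1b3* encodes a further beta subunit of many tissues, and it was the member whose ratios were below 0 on both arrays. The brightest of its 3 probes, all on the minus strand of chromosome 9, lies at chr9:96142249-96142308 and read 1824 in WT and 1525 in *Gde5* skKO on array 1, and 1803 and 1585 on array 2. The ratios were -0.26 and -0.19 with errors of 0.21 and 0.20. A neighbouring probe at chr9:96142725-96142784 gave -0.19 and -0.20, nearly the same values. The dimmest probe, chr9:96152633-96152692, read 67.4 in WT and 73.0 in *Gde5* skKO on array 1 but 96.0 and 42.4 on array 2, where *Gde5* skKO was not well above background. Its ratios of 0.11 and -1.18 disagreed, with errors of 0.31 and 0.48, and under normexp its mean was -0.09 instead of -0.53. Averaging all 3 probes gave -0.32, beside -0.22 for the brightest alone.

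*Fxyd1* encodes phospholemman, the main FXYD protein of heart and skeletal muscle, which restrains the pump until protein kinases A and C phosphorylate it. Its brighter probe, annotated to chr7:30761791-30762188 on the minus strand, read 8440 in WT and 9720 in *Gde5* skKO on array 1, and 9428 and 9519 on array 2. On array 2 the genotypes were nearly equal, and the ratios were 0.20 and 0.01, each with an error of 0.20. The other probe, at chr7:30760668-30760727, read 916 and 1009 on array 1 and 944 and 812 on array 2, giving 0.14 and -0.22. The probes thus gave means of 0.11 and -0.04, and neither left the range of its error on both arrays.

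*Fxyd5* encodes dysadherin, an FXYD protein with a long extracellular part that is known from epithelia and tumours. At chr7:30741565-30741624 on the minus strand it read 221.1 in WT and 251.0 in *Gde5* skKO on array 1, and 215.8 and 226.5 on array 2. *Gde5* skKO was slightly the brighter on both arrays, but the ratios of 0.18 and 0.07 were smaller than their errors of 0.21 and 0.22.

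*Fxyd6* encodes phosphohippolin, first known from brain. Its brighter probe at chr9:45147046-45147105 on the plus strand read 23177 in WT and 21368 in *Gde5* skKO on array 1, and 22167 and 23312 on array 2. The genotypes changed places between the arrays, with ratios of -0.12 and 0.07 and errors of 0.20. A dimmer probe, annotated to chr9:45141817-45142585, read 179.6 and 218.2 on array 1 and 200.05 and 225.2 on array 2, with *Gde5* skKO higher on both at 0.28 and 0.17. Its mean was 0.23, so the direction for *Fxyd6* depended on the probe, and the mean over both was 0.10.

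Ordered by mean ratio, *Atp1b4* came first, followed by *Atp1b1*, *Atp1b2*, *Fxyd5*, *Fxyd1*, *Fxyd6* and *Atp1b3*. The step from *Atp1b4* to *Atp1b1* was many times the difference between arrays in either gene. Each later neighbour in that order was separated by a step about as small as the error of a ratio or smaller, so the order below *Atp1b4* is not firm. By size of the deposited ratio regardless of sign, *Atp1b4* exceeded 99.9% of genes, *Atp1b1* 91.6%, *Atp1b2* 73.8%, *Atp1b3* 70.7% and *Fxyd6* 9.07%. For scale, the median size of the mean ratio over all genes was 0.14 and the 95th percentile was 0.54, while the median gap between the arrays was 0.22.

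**Figure D3:**
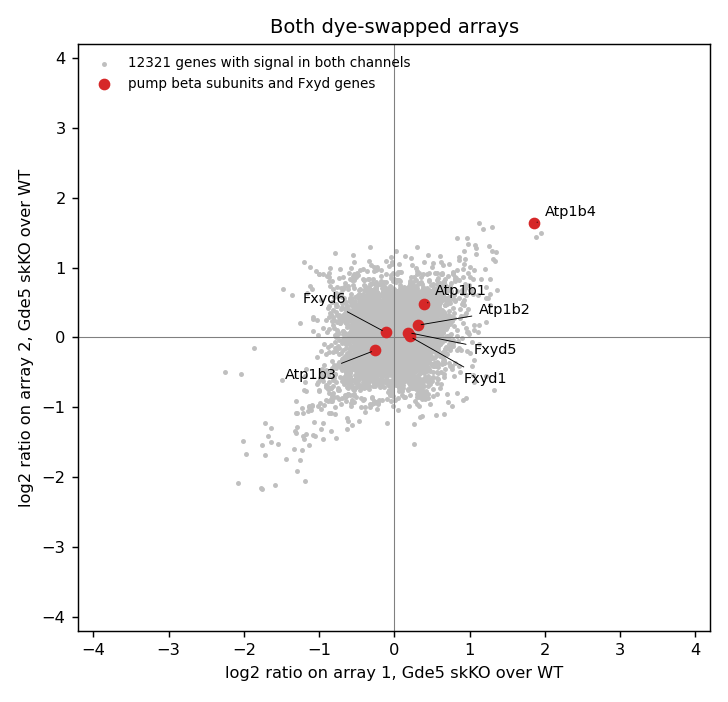
Log2 ratio of *Gde5* skKO over WT on array 1 (x axis) and array 2 (y axis) for the 12321 genes with signal in both channels on both arrays (grey) and the 7 pump genes (red), each by its brightest probe. *Atp1b4* lies at the upper right edge at 1.85 and 1.63, and the other 6 genes lie inside the cloud.

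The other FXYD genes, *Fxyd2*, *Fxyd3*, *Fxyd4* and *Fxyd7*, each had 1 probe and 0 of 4 passed the filter. Of their channels, that of *Gde5* skKO on array 1 for *Fxyd7* was the one well above background. The H,K-ATPase genes *Atp4a*, *Atp4b* and *Atp12a*, whose products form the related proton pumps of stomach and colon, did not pass it either. In the RefSeq gene order *Fxyd5*, *Fxyd7* and *Fxyd1* follow each other on chromosome 7, and *Fxyd6* lies beside *Fxyd2* on chromosome 9. In each cluster the genes measured here thus lie next to an FXYD gene that did not pass the filter. *Atp1b4* lies between *Tmem255a*, which was not tested, and *Lamp2*, at a mean ratio of -0.23. *Atp1b1* lies between *Nme7* at -0.13 and *Dpt* at -0.60, and *Atp1b3* between *Tfdp2* at -0.57 and *Rnf7* at -0.24. Beside *Atp1b2*, *Trp53* read 0.09, and beside *Fxyd1*, *Lgi4* read -0.24.

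Other genes of pump control were counted from lists written from general knowledge, with earlier results of these data known. Over all genes tested, 1.58% were called higher and 1.74% lower, so a list of 10 genes would mostly hold no call. A count of 0 is therefore no result about such a list. Of 10 kinases, phosphatases and other regulators of the pump or of phospholemman, all 10 were tested and 0 were called in either direction, with a median ratio of -0.02. Among them *Ppp1r1a*, which encodes an inhibitor of protein phosphatase 1, read 0.35 and 0.23, and *Sgk1*, a kinase that raises pump abundance in epithelia, read -0.38 and -0.01. Over the 2 probes of each gene the mean was 0.39 for *Ppp1r1a* and -0.41 for *Sgk1*, beside 0.29 and -0.20 for the brightest. *Prkce*, an isoform of protein kinase C, read 0.36 and -0.48, so its sign followed the dye. Of 10 carriers that run on the sodium gradient or move potassium with chloride, 9 were tested, 0 were called, and the median was 0.05. Their values include *Slc8a3*, a sodium-calcium exchanger of muscle, at 0.26 and 0.42, and *Slc20a2*, a sodium-phosphate cotransporter, at 0.59 and 0.25. Averaging the 2 probes of each gene gave 0.17 for *Slc8a3* and 0.28 for *Slc20a2*, beside 0.34 and 0.42 for the brightest. The bicarbonate carrier *Slc4a4* read 1.03 and 0.08, and its signals were between 27.5 and 56.1. Its mean was 0.56 for that probe and 0.22 over its 3 probes.

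A further list held *Snw1*, *Smad7* and *Myod1*, which have been tied to the *Atp1b4* product, and general Smad and TGF-beta pathway genes. Most of the list is thus not a known partner or target of that product. Of its 9 genes 8 were tested, 0 were called, and the median ratio was -0.20. With 1.58% of all genes called higher and 1.74% lower, 0 is the usual count for 8 genes. *Snw1*, which encodes SKIP, read 0.24 and -0.41, opposite signs on the arrays. *Smad7*, the inhibitory Smad whose promoter BetaM is known to act on together with SKIP, read 0.78 and -1.17 from signals between 36.3 and 91.8, again following the dye. *Smad2* read -0.09 and -0.61, and *Myod1*, the myogenic factor whose promoter has also been tied to BetaM, read 0.16 and 0.23. Of the 8 tested genes, 2 were positive on both arrays and 2 were negative on both.

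**Figure D4:**
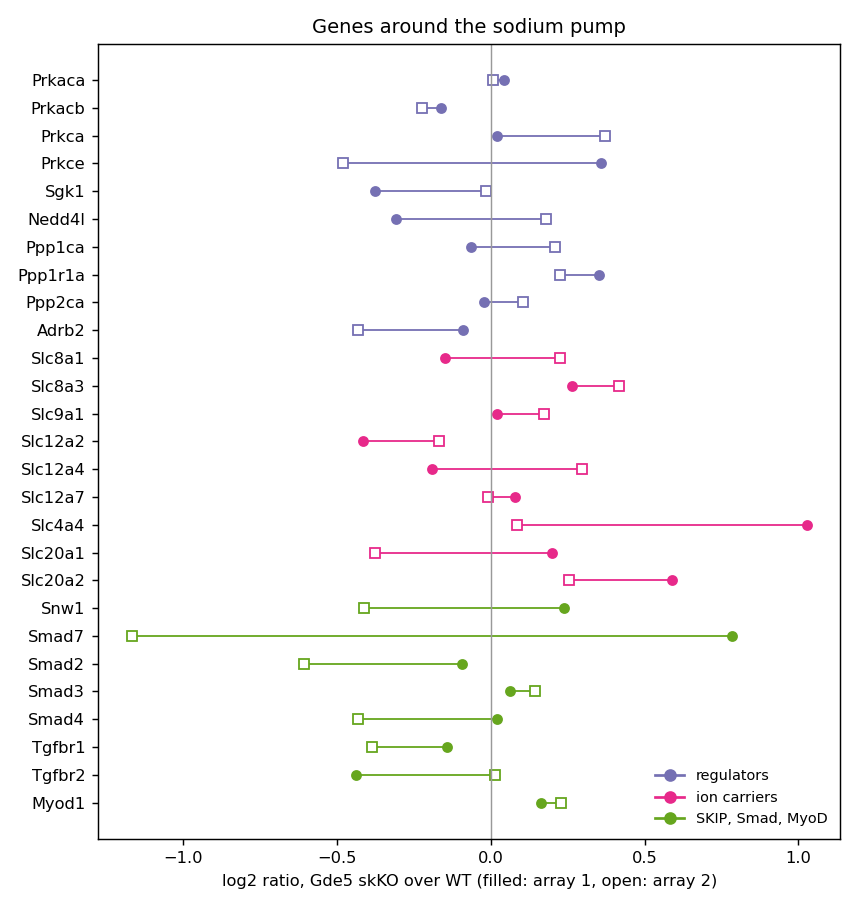
Log2 ratio of *Gde5* skKO over WT of each tested regulator, ion carrier and SKIP, Smad or MyoD gene, by row, on array 1 (filled circles) and array 2 (open squares), coloured by list. None of these genes was called, *Ppp1r1a* lies right of 0 on both arrays at 0.35 and 0.23, and *Smad7* lies on opposite sides at 0.78 and -1.17.

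The genes whose pair of ratios lay nearest to that of *Atp1b4* were taken from the 420 called genes with signal in both channels, by Euclidean distance over the 2 arrays. *Myh3*, the embryonic myosin heavy chain, was the nearest at a distance of 0.17, with ratios of 1.95 and 1.49. *Scn3b*, a beta subunit of voltage-gated sodium channels, followed at 0.20 with 1.88 and 1.44. *Cstad* lay at 0.56 with 1.30 and 1.58, the transcript listed as CB590298 at 0.65 and *Zmat1* at 0.67. Likeness was thus measured over 2 arrays of 1 comparison, and with the normexp model the means of these genes were between 0.40 and 1.11, beside 0.89 for *Atp1b4*. Under that model *Cstad* at 1.11 and *Scn3b* at 1.01 lay above *Atp1b4*, so its rank holds for the deposited ratios alone. *Myh3* was dim in WT as well, at 106.2 in WT and 409.5 in *Gde5* skKO on array 1 and 136.3 and 384.0 on array 2.

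Some marker genes of cell and fibre types moved on the same arrays. Over all genes tested, 1.58% were called higher and 1.74% lower, so 0 called is the usual count for lists this short. Of 11 slow fibre genes 4 were called higher (*Myl2*, *Tnni1*, *Casq2* and *Csrp3*) and 0 lower, with a median ratio of 0.40, and their summed signal was 108008 and 110002 in WT and 153287 and 150710 in *Gde5* skKO. Of 11 fast fibre genes 0 were called, and the median was -0.07, with sums of 708218 and 677522 in WT and 695234 and 647101 in *Gde5* skKO. Of 10 tested genes of developing or denervated muscle 3 were called higher (*Myh3*, *Chrna1* and *Ncam1*), with a median of 0.39 and summed signals of 66876 and 73188 in WT and 73694 and 71968 in *Gde5* skKO. The *Ncam1* call rests on its brightest probe, at a mean of 0.53, while the mean over its 8 probes was 0.07. *Chrng*, the fetal acetylcholine receptor subunit of that list, did not pass the filter, with 1 of its 4 channels well above background, and read 38.9 in WT and 35.4 in *Gde5* skKO on array 1 and 10.1 and 48.2 on array 2. Most of the summed signal of that list came from *Myh8*, the perinatal myosin heavy chain, which was not called at ratios of 0.02 and -0.34. Of 6 tested adipocyte genes 5 were called lower (*Adipoq*, *Plin1*, *Retn*, *Cfd* and *Cidec*), with a median of -0.77, and sums of 43777 and 45066 in WT and 43232 and 41144 in *Gde5* skKO. Most of these sums came from *Fabp4*, which was not called, at 35638 and 37187 in WT and 38866 and 36768 in *Gde5* skKO. Of 7 tested Schwann cell and nerve genes only *Egr2* was called, and it was lower. No gene was called in the lists for endothelium (9 tested), fibroblasts (8), smooth muscle (4) and leukocytes (5), whose medians were 0.04, -0.09, -0.01 and -0.12. The part of fibre type, denervation or other cells in the values of *Atp1b4*, *Atp1b1* and *Atp1b2* was not tested.

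**Figure D5:**
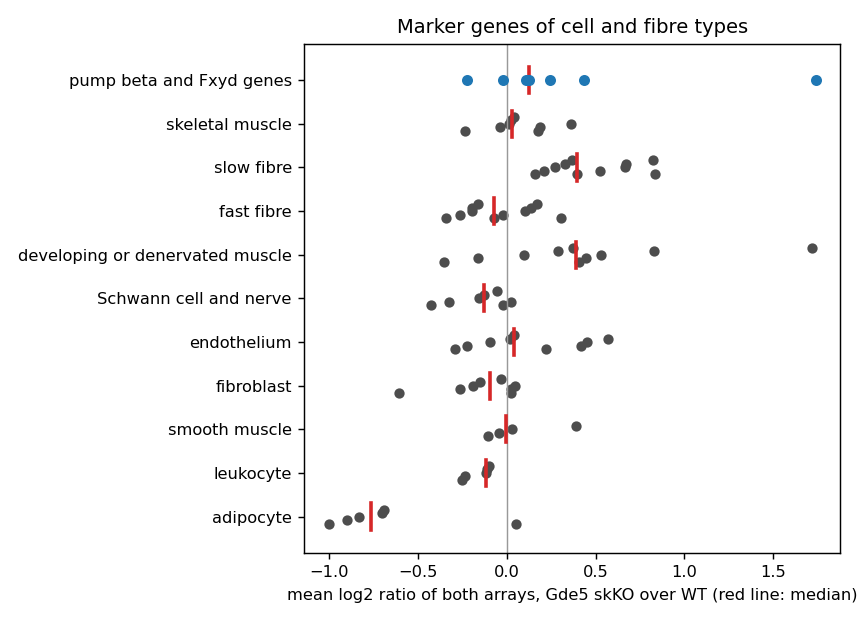
Mean log2 ratio over both arrays of each tested gene of the pump beta and Fxyd genes (blue) and of each marker list (grey), with the median of a list as a red line. The slow fibre and developing or denervated muscle lists have medians of 0.40 and 0.39 and the adipocyte list -0.77, while the 7 pump genes have a median of 0.13.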

How the data were processed

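WT and *Gde5* skKO GAS RNA was compared on 2 dye-swapped Agilent arrays that lie on 1 slide and come from 1 scan. Per the file headers the authors used Feature Extraction 9.5.3.1, which corrects background and dyes. The deposited log10 ratio is that of Cy5 over Cy3 for each spot. The authors' files add a p-value and an error score (the SD of the log10 ratio) from the error model of the software. The deposited intensity columns hold each spot and its local background, and a deposited table of the series gives the same log10 ratio with the swapped array unturned. Probe positions are on mm8.

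From these files, the ratio of every spot was put on the log2 scale as *Gde5* skKO over WT, and spots of 1 probe were averaged. Controls and outlier-marked spots (164 and 200) were left out, as were 7 spots of array 1 beside debris, whose local background was over 5 times the array median and above the spot. That last choice followed a look at the values. No spot of a pump gene was among them. Probes were named through a RefSeq table (GRCm38.p6), 24331 by accession, 6295 by symbol and 2422 by synonym, and 8064 of 41112 kept the array's name. A gene was represented by its brightest probe, by mean log2 signal over channels and arrays.

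The genes and lists were chosen with earlier results of these data known. Named were all 7 genes with every probe, the other FXYD genes, called genes of the lists, the deleted gene and the 5 genes nearest to a called member. Other list members with values, *Acbd7* and the chromosomal neighbours were chosen after their values were seen. Some genes of the lists are not reported here.

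Alternatives were normexp (offset 50) with loess, no background correction, the series table, all probes, other filters and thresholds, each array alone, limma's moderated test and the methods' t-test. Software was matplotlib 3.10.9, scipy 1.17.1, pandas 2.3.3 and numpy 2.4.6 in Python 3.11.15, and limma 3.58.1 in R 4.3.3. Of these steps, only the call rule and limma's moderated test were tried on simulated ratios.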

Additional observations from a re-analysis of the deposited data

How the results depend on the processing

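The mean ratio of *Atp1b4*, the called gene, kept its sign under all 6 alternatives. An array left out cannot move a mean of 2 arrays beyond their SD, the series table repeats the same ratio, and averaging probes changes nothing for a gene with 1 probe, so the background alternatives are the ones that could move every gene. *Atp1b4* fell from 1.74 to 0.89 under normexp and loess and to 0.94 with no background correction, and *Atp1b3* went from -0.22 to -0.32 when all probes were averaged. *Fxyd6*, which was not called, changed sign in 2 of 6 alternatives, at 0.10 over all probes and 0.07 on array 2 alone. The count of pump genes called was 1 as reported, 3 with limma's moderated test before adjustment (*Atp1b1*, *Atp1b2* and *Atp1b4*), 1 after Benjamini-Hochberg adjustment (*Atp1b4*), 2 with the methods' t-test (*Atp1b4* higher and *Atp1b3* lower), 0 after its adjustment, and 1 to 2 with an array left out, *Atp1b1* joining on array 2 alone. Over all genes, 214 were called higher and 236 lower as reported. The counts were 578 and 580 with limma before adjustment, 39 and 70 after it, 475 and 437 with the methods' t-test, 0 and 0 after its adjustment, and 107 and 127 at a Feature Extraction p under 0.01. With an array left out they ranged from 925 to 967 higher and from 721 to 911 lower. The background and series table alternatives kept the deposited p-values, so they could change a call only by its direction. The limma test and the t-test treat the arrays as independent samples, which the labels do not say, and for pump genes chosen from these values their counts are a description. Each array holds both genotypes, so its ratio is already a paired difference. Limma's test used such ratios after normexp and loess, in place of the deposited ones. The t-test compared the channel values of the genotypes, also after normexp, as unpaired groups and so ignored that pairing. The counts of both tests thus differ from those as reported in the background model as well as in the test. A slide block was left out because both arrays lie on 1 slide. Dim spots set the limit for *Atp1b4* in WT, the dimmest *Atp1b3* probe and *Smad7*.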
